A study of Mus musculus with 10 samples.

Results

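C/D box snoRNAs are small nucleolar RNAs named for a pair of short motifs, box C near the 5′ end and box D near the 3′ end, that fold together and bind the methyltransferase fibrillarin and its partner proteins. Most of them guide 2′-O-methylation of ribosomal RNA, while a few, such as the U14 (Snord14) and U8 (Snord118) families, take part in cutting and folding the ribosomal RNA precursor. In mammals most are not transcribed from genes of their own but are trimmed out of the introns of host genes, many of which encode ribosomal proteins or are non-coding snoRNA hosts such as Gas5. Shorter pieces of these RNAs are regularly found in small RNA libraries, which is where they were examined here.

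The members were the GENCODE vM21 genes of type snoRNA whose symbol starts with Snord, and the reads were those of 18 nt or longer that matched such a transcript exactly and in sense and matched no Mir hairpin. There were 98 such genes among 6112 annotated small RNA genes, and 81 of them had at least 1 read; the members were chosen by annotation, and the reads decided which of them could be described. The 17 without a read were all copies of Snord116, so no Snord116 read was seen in any of the 10 libraries. Genes that shared over 50% of their 18 to 40-nt reads were merged (Snord14c with Snord14d, Snord50a with Snord50b, Snord1b with Snord1c, and the 2 gene models of Snord80), which left 77 units with reads, called genes below. Of the 77, Snord61 had 3 reads of 43 nt and none of 18 to 40 nt, and the other 76 had reads of 18 to 40 nt and entered the test of these reads; in 43-nt reads 54 passed the low-count filter. In all, 606345 of 103197012 reads were C/D box snoRNA reads. Of these, 440134 were complete fragments of 18 to 40 nt, and 166211 (27.4%) were 43-nt reads in which no adapter was found, so that the 5′ end of the fragment is known but its 3′ end is not. The 2 kinds were kept apart throughout.

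The libraries were made from sorted cells of male Day 6 embryoid bodies, in which embryonic stem cells had been directed towards primordial germ cell-like cells (mPGCLCs). Each of 5 groups had 2 libraries: mPGCLCs and non-PGCLC embryoid body cells of E14 (129/Ola), mPGCLCs and non-PGCLC cells of BG5 (C57BL/6J/DBA/129), and non-PGCLC cells of SGET (B6CBA/129). Per the study's methods, E14 carries no reporter and its mPGCLCs were sorted by the surface proteins Ssea1 and Cd61, BG5 mPGCLCs by Ssea1 and a Blimp1-GFP reporter, and SGET cells by Stella-GFP and Esg1-tdTomato, while the GEO protocol names the Stella-GFP and Esg1-tdTomato gate for all. SGET mPGCLCs were not analysed here. Libraries held 7421061 to 14444567 reads, of which 42.8% to 67.3% were of 15 to 19 nt, and no 41-nt or 42-nt read was present. Messenger RNA markers of germ cells are not measured in such libraries. Among miRNAs, the Mir290 cluster of pluripotent cells stood at 181184 and 157406 RPM (reads scaled to 1000000 reads of the library) in E14 mPGCLCs and at 107266 and 73795 RPM in E14 non-PGCLC cells. In BG5 the same cluster stood at 58137 and 39996 RPM in mPGCLCs against 5603 and 6802 RPM in non-PGCLC cells, and in SGET non-PGCLC cells at 118959 and 130919 RPM, so non-PGCLC cells of E14 and SGET were far higher in it than those of BG5. The summed let-7 hairpins, typical of differentiated cells, were highest in BG5 non-PGCLC cells, at 30254 and 23579 RPM. In E14 they went the other way, at 9061 and 7141 RPM in mPGCLCs against 6051 and 5356 RPM in non-PGCLC cells. The Mir302 hairpins, also of pluripotent cells, overlapped in E14, at 409 and 298 RPM against 374 and 375 RPM. They stood at 4896 and 4597 RPM against 381 and 349 RPM in BG5, and were lowest in SGET, at 156 and 73.2 RPM.

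The reads were concentrated in a small number of genes and, within the leading genes, in a small number of fragments. To show what these fragments are, the transcripts of 6 of the 12 genes with the most 18 to 40-nt reads are given 5′ to 3′, with the most frequent 18 to 40-nt fragment of the gene in capitals. They were chosen because they hold every position seen among the leading genes: the 5′ end (Snord14c, Snord83b, Snord93), the 3′ end (Snord49a) and the inside of the annotated transcript (Snord118, Snord80). Snord14c lies at chr9:40803583-40803668 on the plus strand (GRCm38) in an intron of Hspa8, Snord83b at chr15:80078498-80078591 on the minus strand in an intron of Rpl3, and Snord93 at chr5:23852210-23852280 on the plus strand in 2700038G22Rik. Snord49a lies at chr11:62603450-62603521 on the plus strand in 2410006H16Rik and Snord80 at chr1:161037601-161037681 on the plus strand in Gas5. Snord118 lies at chr11:69073427-69073561 on the plus strand and, with Snord104 and Snord13, was 1 of the 3 members outside any annotated host gene on its strand.
Snord14c: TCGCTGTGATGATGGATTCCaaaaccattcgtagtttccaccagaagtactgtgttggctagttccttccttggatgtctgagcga
Snord83b: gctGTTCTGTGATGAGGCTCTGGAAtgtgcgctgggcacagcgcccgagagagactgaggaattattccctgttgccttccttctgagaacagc
Snord93: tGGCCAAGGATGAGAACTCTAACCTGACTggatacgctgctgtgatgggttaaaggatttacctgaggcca
Snord49a: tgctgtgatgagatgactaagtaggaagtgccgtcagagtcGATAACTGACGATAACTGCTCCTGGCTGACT
Snord118: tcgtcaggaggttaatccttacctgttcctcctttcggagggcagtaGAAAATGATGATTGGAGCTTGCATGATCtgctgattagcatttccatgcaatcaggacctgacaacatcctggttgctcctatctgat
Snord80: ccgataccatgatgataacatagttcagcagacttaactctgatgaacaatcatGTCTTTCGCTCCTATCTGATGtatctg

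The 43-nt reads of the same genes mostly began near the start of the transcript, Snord118 apart. For Snord49a and Snord80, the 2 genes with the most 43-nt reads, the most frequent 43-nt read is shown in capitals in the same way, for comparison with the 18 to 40-nt fragment of the same gene shown above.
Snord49a, 43-nt: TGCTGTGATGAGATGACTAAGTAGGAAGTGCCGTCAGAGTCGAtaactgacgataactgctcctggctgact
Snord80, 43-nt: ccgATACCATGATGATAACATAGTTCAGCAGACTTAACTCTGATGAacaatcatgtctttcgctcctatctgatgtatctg

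Fragments of 18 to 40 nt came mainly from the 5′ end of the snoRNA. A fragment was counted as 5′ when it began within 5 nt of the annotated 5′ end, as 3′ when it ended within 5 nt of the annotated 3′ end, and as internal otherwise. Of the 18 to 40-nt reads, 62.1% were 5′ (44.0% to 76.9% over the 10 libraries), 23.5% were 3′ (15% to 39.9%) and 14.4% were internal (8.10% to 18.5%). Of the 43-nt reads, 96.9% were 5′, with a range of 95.6% to 97.7% over libraries. A 43-nt read shows only the first 43 bases of its fragment, so a whole snoRNA would be counted as 5′ as well. By gene, over 50% of the 18 to 40-nt reads were 5′ in 42 of 76 genes, 3′ in 24 and internal in 10. For 43-nt reads the same count was 44, 1 and 5 of 50 genes with at least 100 reads.

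**Figure D1:**
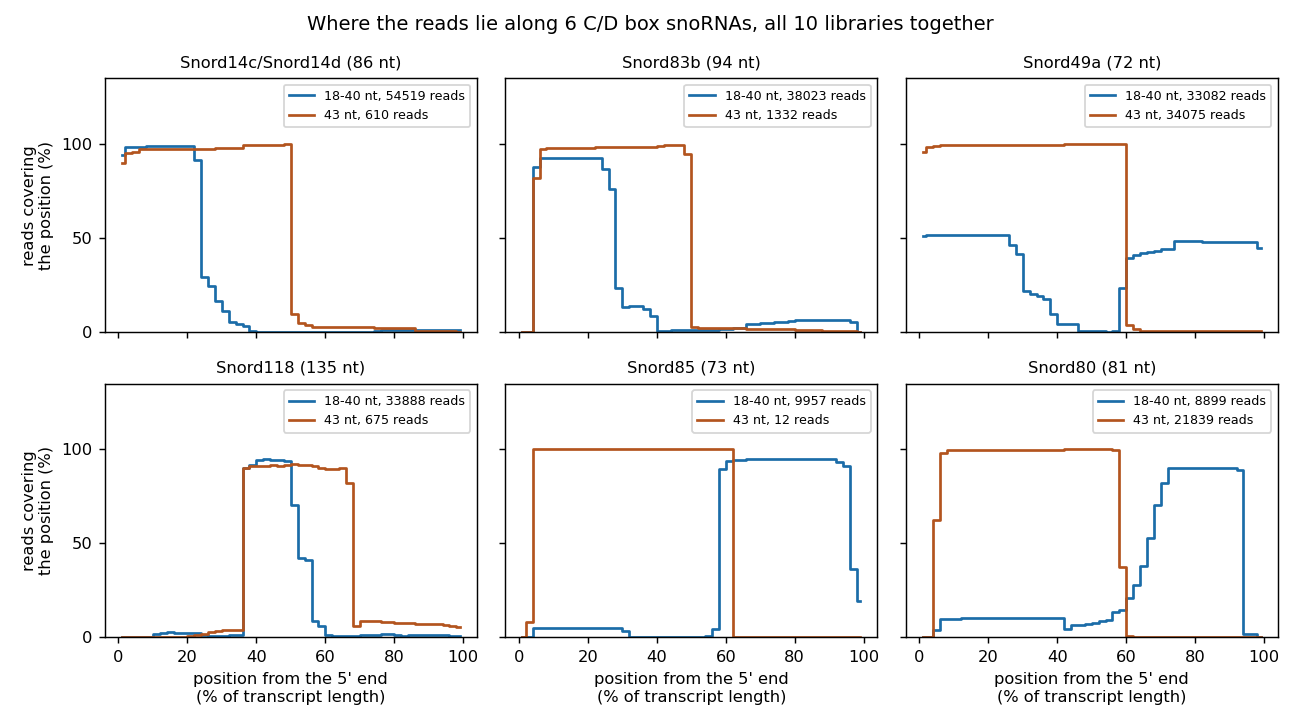
Share of a gene's reads that cover each position (vertical axis, percent) along the annotated transcript (horizontal axis, percent of its length from the 5′ end) for 6 genes, all 10 libraries together, with 18 to 40-nt reads in blue and 43-nt reads in orange. The 18 to 40-nt reads lie at the 5′ end in Snord14c/Snord14d and Snord83b, at both ends in Snord49a, inside in Snord118 and towards the 3′ end in Snord85 and Snord80, while the 43-nt reads of all but Snord118 begin near the 5′ end (12 reads in Snord85).

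The 5′ share of the 18 to 40-nt reads was highest in E14 and lowest in BG5 non-PGCLC cells and 1 SGET library. It was between 66.7% and 76.9% in the 4 E14 libraries. It was 61.9% and 60.1% in BG5 mPGCLCs, 44.0% and 49.1% in BG5 non-PGCLC cells, and 56.3% and 44.4% in SGET non-PGCLC cells. In these reads the E14 libraries did not overlap with those of the other lines, nor BG5 mPGCLCs with BG5 non-PGCLC cells. Both separations depended on the reads used: with reads of 20 to 40 nt the first BG5 mPGCLC library (65.5%) was above the first E14 non-PGCLC library (64.6%), and in distinct sequences the second BG5 mPGCLC library (46.6%) was below the second BG5 non-PGCLC library (47.0%). No test was made of these shares.

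Most starts kept a narrow distance to box C. Box C was searched as TGATGA in the first 20 nt of the annotated transcript and box D as CTGA in the last 20 nt, both on the sense strand. TGATGA was found in 71.4% of the 98 members, in 0% of the 42 Snora genes of the H/ACA class and in 4.66% of the 6014 other annotated small RNA genes. CTGA was found in 98.0%, 11.9% and 12.8% of the same sets. The last set included 1362 genes of type snoRNA under other names, whose box class was not assigned here. In 34 of 36 genes with the motif and 100 or more 43-nt reads, the most frequent 43-nt read began 5 or 6 bases before TGATGA (6 bases in 25 genes and 5 in 9). In 28 of the 30 genes with 5′-sided 18 to 40-nt fragments and the motif, the most frequent start was also 5 or 6 bases before it. Among the 24 genes with 3′-sided fragments, the most frequent end lay 2 bases past CTGA in 17. In transcripts with both motifs, 73.4% of the 18 to 40-nt reads and 99.3% of the 43-nt reads held box C, while 25.8% and 0.477% held box D. In 43-nt reads the bases past the first 43 of a fragment are not seen, so its box D can be missed.

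The 18 to 40-nt and the 43-nt reads shared their starts where both came from the 5′ end. Of 29 such genes with at least 100 reads of 43 nt, 22 had the same most frequent start in both kinds of read, and all 29 had starts within 1 nt of each other. Snord118 was an example inside its annotated transcript: 99.0% of its 18 to 40-nt reads were internal, 80.1% began at nt 48, and 76.0% of its 43-nt reads began at nt 48 as well. That start lies 5 bases before the single TGATGA of this transcript, at nt 53. Snord80 depended on the gene model, since 87.7% of its 18 to 40-nt reads ended at nt 75 of the 81-nt model, 6 nt from its end and so 1 nt too far to count as 3′.

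Fragment lengths were broad. Of the 18 to 40-nt reads, 11% were of 18 to 19 nt, 31.6% of 20 to 23 nt, 19.1% of 24 to 27 nt, 34.6% of 28 to 34 nt and 3.86% of 35 to 40 nt. The modal length of the fragments was 20 nt throughout E14, 21 and 22 nt in BG5 mPGCLCs, 28 and 25 nt in BG5 non-PGCLC cells, and 22 and 28 nt in SGET. The first base was G in 38.0%, U in 29.7%, A in 20.03% and C in 12.2% of the 18 to 40-nt reads.

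The 12 genes with the most 18 to 40-nt reads held 64.0% of them. Ordered by mean RPM over the 10 libraries, they were Snord14c/Snord14d (12.4%), Snord83b, Snord118, Snord49a, Snord55, Snord50a/Snord50b, Snord82, Snord100, Snord96a, Snord93, Snord85 and Snord80, and the first 4 together held 36.3%. The first place of Snord14c/Snord14d rested on E14: its group mean was below that of Snord83b in BG5 mPGCLCs (150 against 257 RPM), BG5 non-PGCLC cells (97.3 against 105 RPM) and SGET (271 against 446 RPM), and without the second E14 non-PGCLC library the means over the other 9 were 363 and 337 RPM. Per 100 nt of transcript the same 12 genes ranked highest, with Snord14c/Snord14d first at 608 RPM per 100 nt and Snord80 last of the 12 at 105 RPM per 100 nt. The 43-nt reads were more concentrated: Snord49a held 20.5% of them, the first 4 genes (Snord49a, Snord80, Snord100 and Snord96a) 49.7% and the first 12 genes 79.4%.

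The balance of the 2 kinds of read differed widely between genes. The 43-nt share of a gene's reads was 89.4% for Snord59a, 83.2% for Snord87 and 71.0% for Snord80 at the high end. It was 0.120% for Snord85, with 12 reads of 43 nt beside 9957 of 18 to 40 nt, and 0.228% for Snord93, with 25 beside 10960. Altogether 13 of 76 genes had more 43-nt than 18 to 40-nt reads, and in 28 of 76 the 43-nt share was under 5%.

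Snord14c/Snord14d and Snord118, which take part in ribosomal RNA processing, were among the leading genes, while the other measured genes of that list had mean levels of 58.9 RPM (Snord14e), 38.8 RPM (Snord22), 18.7 RPM (Snord13) and 4.81 RPM (Snord14a). Snord14c/Snord14d, 2 near-identical U14 copies within Hspa8, stood at 817 and 773 RPM in E14 mPGCLCs, 193 and 108 RPM in BG5 mPGCLCs, 644 and 1961 RPM in E14 non-PGCLC cells, 132 and 62.2 RPM in BG5 non-PGCLC cells, and 285 and 257 RPM in SGET. Each E14 library was above all BG5 and SGET libraries, and mPGCLCs overlapped with non-PGCLC cells in both lines. The Snord14c/Snord14d reads were 98.3% from the 5′ end, and the 20-nt fragment shown above made up 43.7% of them. Snord118, the U8 RNA needed for the large-subunit ribosomal RNAs, stood at 640 and 457 RPM in E14 mPGCLCs, 246 and 238 RPM in BG5 mPGCLCs, 299 and 328 RPM in E14 non-PGCLC cells, 203 and 170 RPM in BG5 non-PGCLC cells, and 463 and 302 RPM in SGET. Here mPGCLCs were above non-PGCLC cells without overlap in both lines, by a fitted log2 difference of 0.59 (SE 0.35) that did not pass the test (edgeR adjusted p = 0.382).

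The other leading genes are trimmed from introns of host genes, many of them active in translation. Snord83b, within Rpl3, stood at 584 and 440 RPM in E14 mPGCLCs, 273 and 241 RPM in BG5 mPGCLCs, 396 and 676 RPM in E14 non-PGCLC cells, 127 and 83.5 RPM in BG5 non-PGCLC cells, and 463 and 429 RPM in SGET. It was lowest in BG5 non-PGCLC cells and did not separate the E14 cell types. Snord55 stood at 361 and 287 RPM in E14 mPGCLCs, 268 and 118 RPM in BG5 mPGCLCs, 293 and 295 RPM in E14 non-PGCLC cells, 39.9 and 98.3 RPM in BG5 non-PGCLC cells, and 228 and 328 RPM in SGET, so both BG5 mPGCLC values were above both BG5 non-PGCLC values. Snord93 stood at 118 and 201 RPM in E14 mPGCLCs, 34.9 and 78.7 RPM in BG5 mPGCLCs, 113 and 206 RPM in E14 non-PGCLC cells, 1.59 and 11 RPM in BG5 non-PGCLC cells, and 90.4 and 236 RPM in SGET. These values leave out the reads shared with Mir3096, and with them the 10 libraries ran from 17.2 to 347 RPM.

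**Figure D2:**
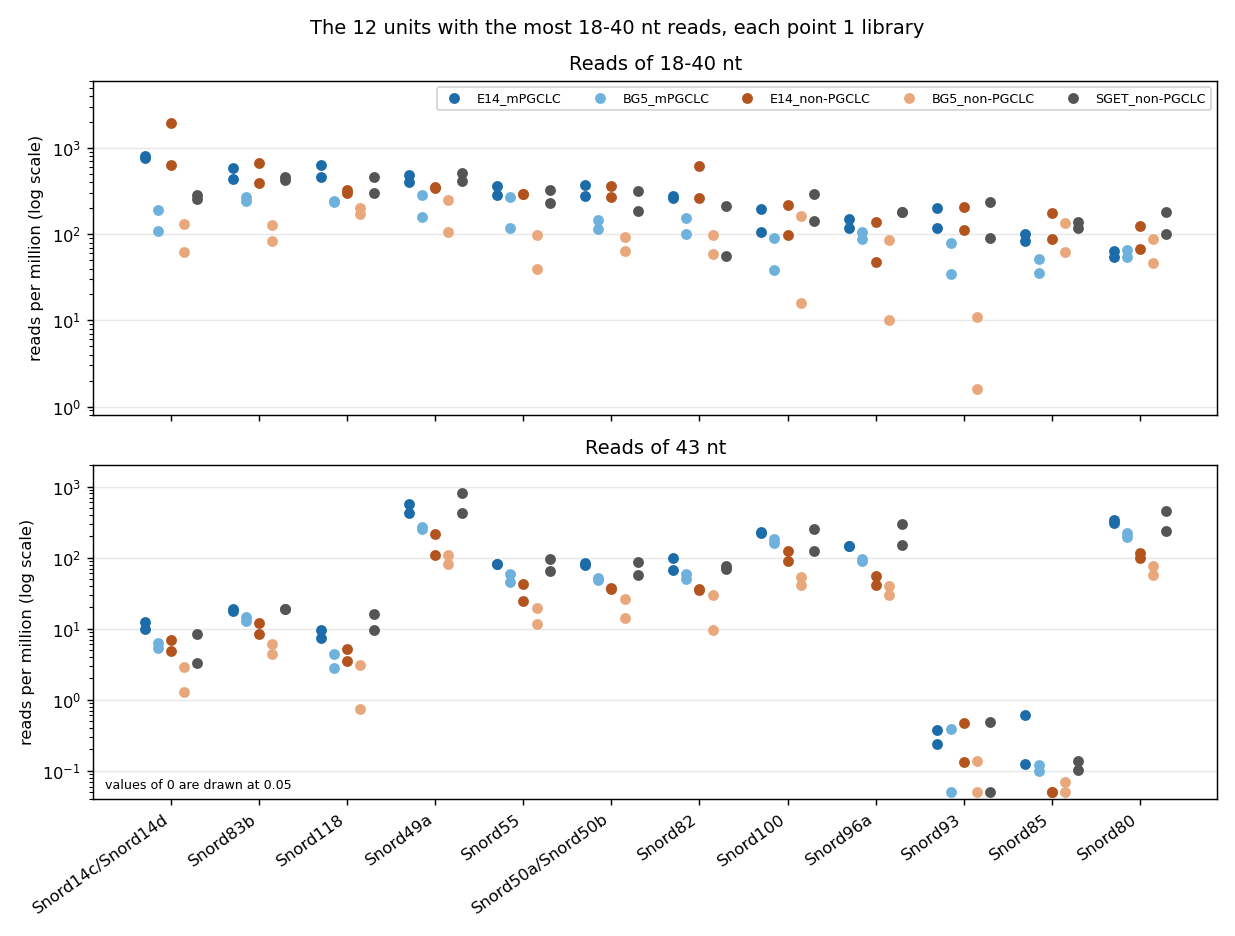
RPM on log axes for the 12 C/D box snoRNA genes with the most 18 to 40-nt reads, 1 point per library, coloured by group, with 18 to 40-nt reads above and 43-nt reads below (values of 0 drawn at 0.05). In 18 to 40-nt reads Snord14c/Snord14d spans 62.2 to 1961 RPM and Snord93 reaches down to 1.59 RPM in BG5 non-PGCLC cells, and in 43-nt reads Snord49a and Snord80 are high while Snord93 and Snord85 are near 0.

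The summed level of C/D box snoRNA reads of 18 to 40 nt stood higher in E14 than in BG5 when taken per library read. It was 6003 and 5430 RPM in E14 mPGCLCs (5716 ± 405, SD, n = 2) against 4814 and 7456 RPM in E14 non-PGCLC cells (6135 ± 1868), with overlapping values and a log2 ratio of -0.10. It was 3023 and 2375 RPM in BG5 mPGCLCs (2699 ± 458) against 2299 and 1507 RPM in BG5 non-PGCLC cells (1903 ± 561), which did not overlap (1.42-fold), and 4569 and 5761 RPM in SGET non-PGCLC cells (5165 ± 843). All 4 E14 libraries were above all 4 BG5 libraries in reads. As a share of each library's distinct sequences they overlapped, the first E14 non-PGCLC library standing at 1659.7 and the first BG5 mPGCLC library at 1671 per 1000000 distinct sequences. The E14 cell types overlapped per library read but not under 2 other scalings. Per 1000000 distinct sequences E14 mPGCLCs were higher, at 3169 and 3510 against 1659.7 and 1745, and per 1000000 annotated small RNA reads they were lower, at 19774 and 19421 against 23017 and 43752. The members' sum was given no test.

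The 43-nt reads stood higher in mPGCLCs than in non-PGCLC cells of E14 and BG5. Their sum was 2520 and 2328 RPM in E14 mPGCLCs (2424 ± 136) against 1096 and 828 RPM in E14 non-PGCLC cells (962 ± 190), 2.52-fold higher without overlap. It was 1471 and 1448 RPM in BG5 mPGCLCs (1459 ± 16.1) against 400 and 616 RPM in BG5 non-PGCLC cells (508 ± 153), 2.87-fold higher without overlap. SGET non-PGCLC cells, at 3369 and 2010 RPM (2690 ± 961), were not low: they overlapped with E14 mPGCLCs and were above the non-PGCLC cells of both other lines. The sum of all other 43-nt reads moved in the same direction. It was 4647 and 4104 RPM in E14 mPGCLCs against 3033 and 2711 RPM in E14 non-PGCLC cells. In BG5 it was 3079 and 3614 RPM against 1709 and 1989 RPM, and in SGET 5733 and 5617 RPM. This sum included genes of type snoRNA under other names, at 2432 and 2188 RPM against 982 and 817 RPM in E14. In BG5 these genes stood at 1622 and 1567 RPM against 473 and 628 RPM, and in SGET at 3005 and 1872 RPM. The sum therefore does not show a rise in 43-nt reads outside snoRNA genes, which was not tested. The share of all 43-nt reads that were C/D box snoRNA reads was 35.2% and 36.2% in E14 mPGCLCs against 26.5% and 23.4% in E14 non-PGCLC cells, and 32.3% and 28.6% against 19% and 23.7% in BG5, again without overlap. In SGET it was 37.0% and 26.4%. In bulk samples, fewer cells of a type and less RNA per cell cannot be told apart. The share of 43-nt reads among all reads of a library ran from 0.211% in BG5 non-PGCLC cells to 0.910% in SGET, and its part in these differences was not tested.

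**Figure D3:**
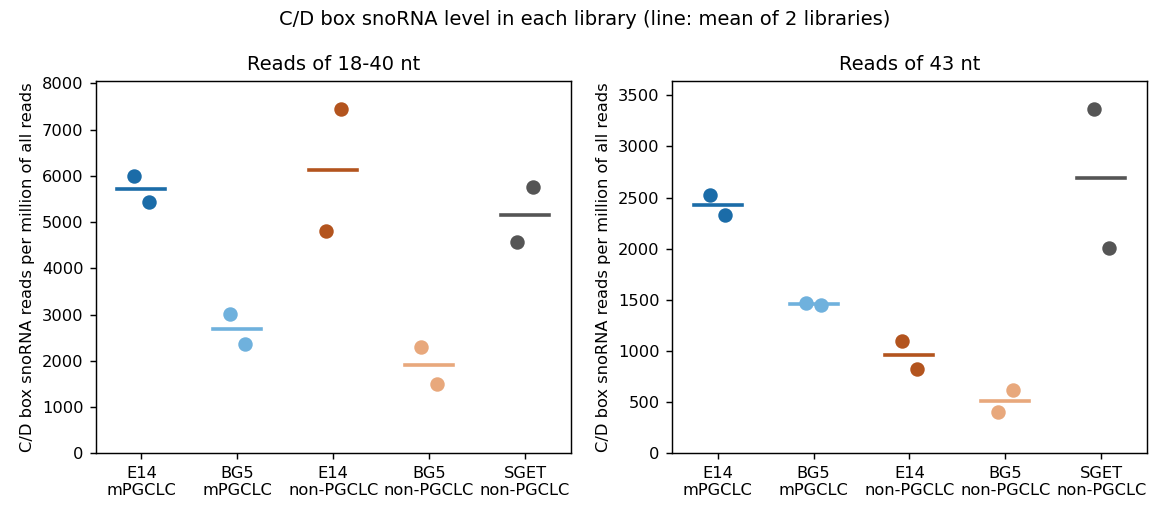
Summed RPM of C/D box snoRNA reads of 18 to 40 nt (left) and of 43 nt (right), with each library as a point and the mean of the 2 libraries of a group as a line. Within E14 the 18 to 40-nt values overlap (4814 to 7456 RPM), whereas the 43-nt values of mPGCLCs (2520 and 2328 RPM) lie above those of non-PGCLC cells (1096 and 828 RPM).

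Gene by gene, 1 member passed the test between cell types in 18 to 40-nt fragments. Of 76 genes tested with edgeR in a fit of 619 small RNA genes, 1 was higher and 0 were lower in mPGCLCs over both lines at an adjusted p under 0.05 (5 at an unadjusted p under 0.05; DESeq2 called 2 higher and 1 lower), where edgeR called 3.88% of all genes higher and 4.85% lower and DESeq2 9.21% in each direction. The median log2 difference was 0.50 for the members and 0.23 for all genes. Both mPGCLC libraries were above both non-PGCLC libraries of the line in 13 of 76 members in E14 (21.8% of all genes) and 21 in BG5 (22.1%), and did so in both lines in 2 (6.95%). Both were below in 10 members in E14 (15.7%), 9 in BG5 (23.4%) and 3 in both lines (8.24%). Within E14, 0 members were called by edgeR (0 at an unadjusted p under 0.05, 0 by DESeq2), where 0.646% of all genes were called by edgeR and 6.46% by DESeq2. Within BG5, edgeR called 2 members, both higher in mPGCLCs (7 at an unadjusted p under 0.05), where 4.2% of all genes were called higher and 4.68% lower. DESeq2 called 4 higher and 2 lower within BG5, where it called 19.9% of all genes in either direction. Replicates varied widely in these reads: the correlation of log2 RPM between the 2 libraries of a group was 0.579 to 0.859 over 76 genes, a description over genes that share a library.

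The 2 genes called in BG5 were Snord42a and Snord47. Snord42a, within Rpl23a, stood at 76.7 and 23.5 RPM in BG5 mPGCLCs and at 0 in both BG5 non-PGCLC libraries, which against a floor of 3 reads per library is at least 191-fold higher (edgeR adjusted p = 0.0123), or at least 89.4-fold without the first BG5 mPGCLC library. In E14 it stood at 22.1 and 18 RPM in mPGCLCs and 10.5 and 78.2 RPM in non-PGCLC cells, which overlap, and in SGET at 11.6 and 35.2 RPM. It was also the single gene called over both lines (log2 difference 5.43, SE 1.65, edgeR adjusted p = 0.0430), a call lost in 7 of the 10 fits that each left out 1 library (edgeR adjusted p from 0.00818 to 0.127) and in the fit without 18 and 19-nt reads (0.0763), and its effect differed between the lines (edgeR adjusted p = 0.0315), as it did in no other member by edgeR (4 members in all at an unadjusted p under 0.05; DESeq2 called 3), where 4.2% of all genes were called by edgeR and 10.8% by DESeq2. With reads of 20 to 40 nt, with reads of 18 nt or longer, and without the first or the second E14 mPGCLC library or the second E14 non-PGCLC library, edgeR called 0 members for this difference between the lines. The log2 difference of 5.43 averages over BG5, where both non-PGCLC libraries held 0 reads, so its size is no bound. In 43-nt reads Snord42a was present in BG5 non-PGCLC cells, at 0.317 and 0.485 RPM against 1.82 and 1.86 RPM in BG5 mPGCLCs. Snord47, within Gas5, stood at 27.2 and 12.1 RPM in BG5 mPGCLCs against 0 and 0.14 RPM in BG5 non-PGCLC cells (edgeR adjusted p = 0.0370), a call lost with reads of 20 to 40 nt (edgeR adjusted p = 0.0560), with reads of 18 nt or longer (0.139), with TMM (0.0612), with annotated small RNA reads as library size (0.0564), with only the samples compared (0.226) and without the second E14 non-PGCLC library (0.0559). It stood at 52.2 and 66.9 RPM in E14 mPGCLCs against 37.7 and 224 RPM in E14 non-PGCLC cells.

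The lines were compared in their non-PGCLC cells. In a joint test of the 3 non-PGCLC groups, edgeR called 8 of 76 members, where 16.3% of all genes were called. The same 8 were called lower in BG5 than in E14 when this pair was tested in the same fit, and 0 were higher, where 4.2% of all genes were called lower and 9.53% higher. The median log2 difference of BG5 from E14 was -1.34 for the members and 0.00 for all genes. Snord14c/Snord14d fell by 3.74 on the log2 scale in BG5 against E14 (SE 0.58, edgeR adjusted p = 6.9e-05). In SGET against E14 it fell by 2.27 (edgeR adjusted p = 0.0210). In BG5 Snord83b fell by 2.35 (SE 0.51, edgeR adjusted p = 0.0021) and Snord93 fell by 4.65 (edgeR adjusted p = 0.0036), while with the reads shared with Mir3096 it fell by 3.21. Snord82 fell by 2.5 (edgeR adjusted p = 0.0152), Snord50a/Snord50b fell by 2.02 (0.0204) and Snord55 fell by 2.09 (0.0245), all on the log2 scale. The other 2 were Snord47 and Snord42a, which were at or near 0 in BG5 non-PGCLC cells. Of the 12 alternatives other than leaving out 1 library, the joint call of Snord42a was lost in 2 and that of Snord47 in 0. In the joint test, 4 members were called without the second E14 non-PGCLC library, where 17.0% of all genes were called (Snord14c/Snord14d, Snord83b, Snord93 and Snord42a). In a joint fit of only the samples compared 4 were called as well, where 16.7% of all genes were called (Snord14c/Snord14d, Snord83b, Snord93 and Snord47). Snord82, Snord55 and Snord50a/Snord50b were called in neither. The joint call of Snord50a/Snord50b was lost in 8 of the 10 fits that each left out 1 library and in 4 of 12 other alternatives, and that of Snord55 in 5 and 4. The differences themselves moved as well. Without the second E14 non-PGCLC library, Snord14c/Snord14d fell by 2.73 and Snord82 fell by 1.77 in BG5 against E14. Without the first BG5 non-PGCLC library, Snord14c/Snord14d fell by 4.39 and Snord93 fell by 3.85, and without the second Snord93 fell by 6.64 and Snord55 fell by 2.88. The BG5 non-PGCLC libraries were also those with the fewest Mir290 reads and the most Mir199 and Mir214 reads (17356 and 10041 RPM, against 879 and 1010 RPM in E14 non-PGCLC cells), so line and cell mixture cannot be told apart here.

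On the 43-nt reads most members rose in mPGCLCs when scaled to all reads of the library. Of 54 genes tested with edgeR in a fit of 138, 46 were higher and 2 lower over both lines, where 65.2% of all genes were called higher and 2.9% lower, and the median log2 difference was 1.35 for the members and 1.24 for all genes. The members' share was thus read against a background in which most small RNA genes with 43-nt reads were higher too. That background held the members themselves and many genes of type snoRNA under other names, so it is not one without snoRNAs. Within E14, 30 were higher and 2 lower (48.6% and 5.07% of all genes), and within BG5, 41 and 2 (59.4% and 2.17%). Replicates did not overlap, with mPGCLCs higher, in 46 of 54 members in E14 (69.6% of all genes), 46 in BG5 (73.2%) and 42 in both (62.3%). With mPGCLCs lower, it was 1 in E14 (7.25%), 2 in BG5 (5.07%) and 1 in both (2.17%). The effect differed between the lines in 0 members (5 at an unadjusted p under 0.05), where 0.725% of all genes were called. DESeq2 was run for the mean effect alone, with its own size factors, and called 2 members higher and 2 lower, where it called 2.17% of all genes higher and 12.3% lower.

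These calls depended on the scaling. When the 43-nt counts were scaled by TMM, which sets the middle of the 43-nt table equal between libraries, edgeR called 2 members higher and 2 lower over both lines, where 2.9% and 13.8% of all genes were called. With all 43-nt reads of the library as its size, 15 of 52 were higher and 2 lower, where 25.7% and 11% of all genes were called. TMM factors ran from 0.307 to 1.97. Within lines, TMM left 1 call in E14 and 2 in BG5 (6.52% and 8.7% of all genes), and all 43-nt reads as library size left 0 and 4 (2.94% and 9.56%). Without the second E14 non-PGCLC library, total-read scaling called 0 members within E14 (22 at an unadjusted p under 0.05) and 0 of all 148 genes in the fit. Among the non-PGCLC groups of the 3 lines, the joint test called 49 members under total-read scaling (86.2% of all genes) and 15 under TMM (34.8%). For the pair of BG5 and E14 alone, 27 members were lower in BG5 and 2 higher under total-read scaling (42.8% and 7.97% of all genes), against 1 lower and 2 higher under TMM (2.17% and 8.7%). These are counts of exact reads. Snord33 stood higher in BG5 in them, whereas its log2 difference was -0.43 with the substituted and shared reads described below.

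Snord1b/Snord1c and Snord78 were the 2 genes higher in mPGCLCs over both lines under total-read and under TMM scaling. Snord1b/Snord1c, 2 copies within 1810032O08Rik, stood at 24.2 and 26.2 RPM in E14 mPGCLCs, 20.7 and 18.4 RPM in BG5 mPGCLCs, 7.01 and 8.60 RPM in E14 non-PGCLC cells, 3.28 and 5.40 RPM in BG5 non-PGCLC cells, and 59.0 and 34.8 RPM in SGET. Its mPGCLC values were above the non-PGCLC values of the same line without overlap (log2 difference 1.92, SE 0.28, edgeR adjusted p = 2.02e-09). Snord78, a methylation guide within Gas5, stood at 5.68 and 6.84 RPM in E14 mPGCLCs against 2.56 and 1.86 RPM in E14 non-PGCLC cells, and at 3.88 and 5.77 RPM in BG5 mPGCLCs against 0.21 and 0.62 RPM in BG5 non-PGCLC cells, with 4.72 and 2.66 RPM in SGET. Its log2 difference was 2.46 (SE 0.43, edgeR adjusted p = 3.29e-07).

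Snord123 and Snord49b moved the other way in both scalings. Snord123, within Snhg18, stood at 0 and 0.12 RPM in E14 mPGCLCs, 1.21 and 0.98 RPM in BG5 mPGCLCs, 0.54 RPM in both E14 non-PGCLC libraries, 3.28 and 5.19 RPM in BG5 non-PGCLC cells, and 1.87 and 0.72 RPM in SGET (log2 difference -2.44, SE 0.68, edgeR adjusted p = 0.000746). It rests on 172 reads of 43 nt in all. Snord49b stood at 1.81 and 0.37 RPM in E14 mPGCLCs against 5.26 and 1.63 RPM in E14 non-PGCLC cells, at 0.48 and 0.78 RPM in BG5 mPGCLCs against 1.69 and 2.35 RPM in BG5 non-PGCLC cells, and at 2.5 and 11.7 RPM in SGET. The values overlap in E14 and not in BG5 (log2 difference -1.62, SE 0.46, edgeR adjusted p = 0.000924). Its 43-nt reads were 94.8% from the 3′ end of the transcript, against 96.9% from the 5′ end in the class as a whole.

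The 4 genes with the most 43-nt reads all rose under total-read scaling. Snord49a stood at 569 and 423 RPM in E14 mPGCLCs against 212 and 110 RPM in E14 non-PGCLC cells, and at 271 and 251 RPM against 80.3 and 108 RPM in BG5, with 810 and 426 RPM in SGET (log2 difference 1.55). Snord80, within Gas5, stood at 337 and 311 RPM against 116 and 98.5 RPM in E14, and at 198 and 221 RPM against 57.5 and 77.0 RPM in BG5, with 454 and 238 RPM in SGET (log2 difference 1.62). Snord100, within Rps12, and Snord96a, within Rack1, rose by log2 differences of 1.47 and 1.51. The same 4 genes showed no such uniform direction in 18 to 40-nt reads, where none of them passed the test. Snord49a stood at 481 and 399 RPM against 355 and 343 RPM in E14, and 283 and 159 RPM against 251 and 106 RPM in BG5, overlapping in BG5 alone. Snord80 stood at 63.8 and 54.7 RPM against 67.8 and 124 RPM in E14, and 64.8 and 54.0 RPM against 88.4 and 46.7 RPM in BG5, lower in mPGCLCs without overlap in E14 and overlapping in BG5.

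**Figure D4:**
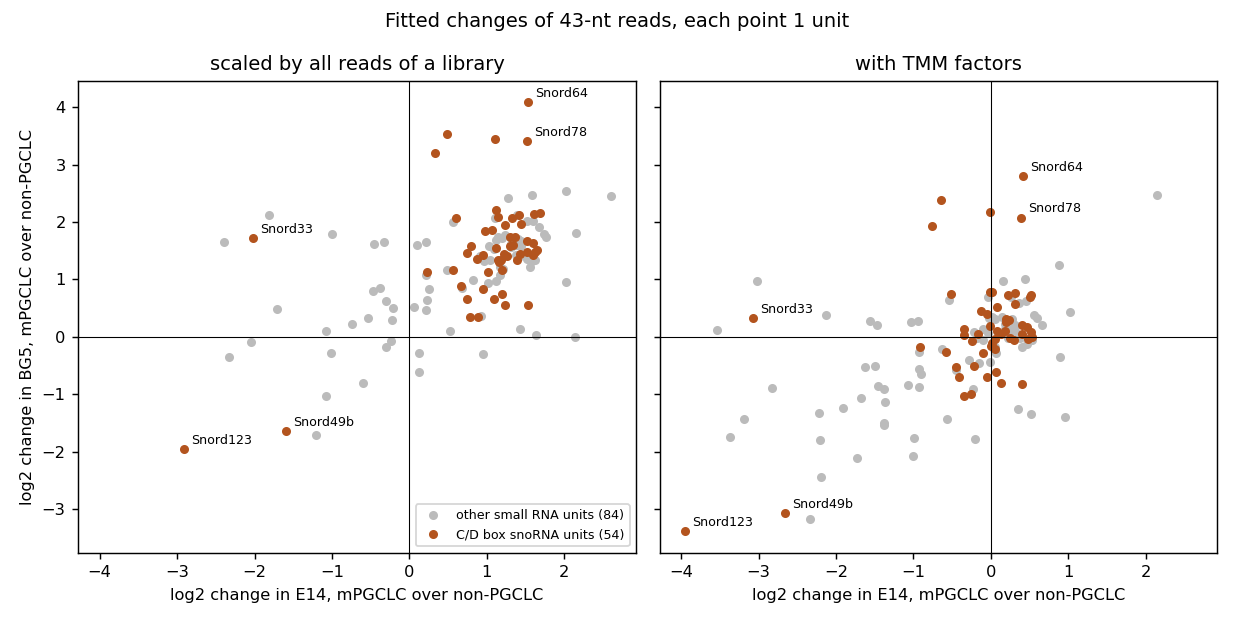
Fitted log2 difference of 43-nt reads, mPGCLC minus non-PGCLC, within E14 (horizontal axis) and within BG5 (vertical axis), 1 point per gene, with C/D box snoRNA genes in colour and other small RNA genes in grey, under total-read scaling (left) and TMM scaling (right). Under total-read scaling 51 of 54 C/D box genes are above 0 in both lines, as are 58 of 84 other genes, and under TMM scaling 19 of 54 and 25 of 84 are. Many of the other genes are of type snoRNA under other names.

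Members were also grouped by host gene and role, and in 43-nt reads each count stands against the 65.2% of all genes called higher and their median log2 difference of 1.24. Of the Snord genes within Gas5, a non-coding snoRNA host, 3 were measured (Snord47, Snord78, Snord80): 0 of 3 passed in 18 to 40-nt reads over both lines, and 3 of 3 were higher in 43-nt reads (median log2 difference 1.62). Of the 4 within the ribosomal protein gene Rpl13a (Snord32a, Snord33, Snord34, Snord35a), 0 passed in 18 to 40-nt reads and 3 were higher in 43-nt reads (median 0.92), a count of exact reads that became 4 (median 1.20) with the substituted and shared Snord33 reads added. Of the genes of ribosomal RNA processing (Snord13, Snord14a, Snord14c/Snord14d, Snord14e, Snord22, Snord118), 0 of 6 passed in 18 to 40-nt reads, and 4 of 4 tested were higher in 43-nt reads (median 0.995). Within E14, the Gas5, Rpl13a and processing genes called higher in 43-nt reads were 3 of 3, 1 of 4 and 0 of 4 (48.6% of all genes). Within BG5 they were 3 of 3, 3 of 4 and 3 of 4 (59.4%). Within the imprinted Snurf-Snrpn locus, whose snoRNAs are known from neurons, 19 genes were annotated and Snord64 and Snord107 alone had reads. In 18 to 40-nt reads 0 of these 2 passed over both lines. In 43-nt reads both were called higher in mPGCLCs over both lines (median 2.25), 1 of 2 within E14 and 2 of 2 within BG5. Snord64 stood at 4.11 and 2.11 RPM in E14 mPGCLCs against 1.35 and 0.85 RPM, and at 2.06 and 1.27 RPM in BG5 mPGCLCs against 0.21 and 0 RPM (log2 difference 2.81, edgeR adjusted p = 2.2e-06). The SGET non-PGCLC libraries, at 9.09 and 5.22 RPM, were above all mPGCLC libraries. Snord107 stood at 3.02 and 2.24 RPM in E14 mPGCLCs against 1.48 and 0.70 RPM, at 1.45 and 1.076 RPM in BG5 mPGCLCs against 0.21 and 0.35 RPM, and at 4.23 and 2.56 RPM in SGET. Under TMM scaling Snord78 was the single gene of these lists called over both lines. No Snord gene was annotated under the symbols listed for the Dlk1-Dio3 locus, and snoRNA genes of that locus under other symbols were not examined. Snord22, the measured gene of Snhg1, did not pass.

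Snord33, within Rpl13a, shows what an exact match leaves out. In E14, which is of strain 129/Ola, nearly all its reads carried a base other than the annotated one at nt 18, the substitution A18C, counted from 1 at the 5′ end of the transcript. The transcript lies at chr7:45126864-45126947 on the minus strand and the base at 45126930, and the capital marks it.
Snord33: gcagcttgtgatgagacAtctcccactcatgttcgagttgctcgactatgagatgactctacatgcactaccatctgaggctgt
Of the E14 reads over this base, 4759 of 4772 (99.7%) had the substitution (95% Wilson interval 99.5% to 99.8%). In BG5 it was 2 of 572 (0.350%, 0.0959% to 1.27%) and in SGET 0 of 868, where 3 reads would be 0.346% and the upper Wilson limit was 0.441%. Reads shared with Mir5121 are included in these totals. These intervals cover counting error alone. The substituted 18 to 40-nt reads stood at 109 and 86.4 RPM in E14 mPGCLCs and 158 and 121 RPM in E14 non-PGCLC cells, and the exact reads in the same libraries at 8.10 and 1.62 RPM and at 6.20 and 6.43 RPM. These exact reads lay elsewhere on the transcript: in all 10 libraries 0 of them covered nt 18, since the exact 18 to 40-nt reads over that base also match Mir5121 and were left out of the counts. Of the 4332 substituted 18 to 40-nt reads, 86.6% were of 18 to 23 nt, and the most frequent ran from nt 4 to nt 23. Whether these reads match another place in the genome exactly was not tested.

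The Snord33 differences between E14 and the other lines changed in size when the reads with this base were added. In exact 43-nt reads, Snord33 was higher in BG5 and SGET than in E14 non-PGCLC cells by log2 differences of 4.42 and 6.74 (edgeR adjusted p = 7.1e-27 for the 3 groups jointly), the exact values being 0 and 0.47 RPM in E14, 3.91 and 8.65 RPM in BG5, and 37.1 and 26.2 RPM in SGET. With the substituted reads and those shared with Mir5121 added, E14 non-PGCLC cells gained 10.6 and 6.28 RPM and the log2 differences were -0.43 and 1.88 (edgeR adjusted p = 1.9e-09 for the 3 groups jointly). With them, the cell-type difference over both lines was 1.33 in 43-nt reads (edgeR adjusted p = 6.2e-06), against -0.15 without them. In 18 to 40-nt reads, BG5 and SGET non-PGCLC cells differed from E14 by log2 values of -1.89 and 0.25 without the added reads (edgeR adjusted p = 0.922, joint test) and -6.42 and -3.82 with them (edgeR adjusted p = 0.0319, joint test).

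**Figure D5:**
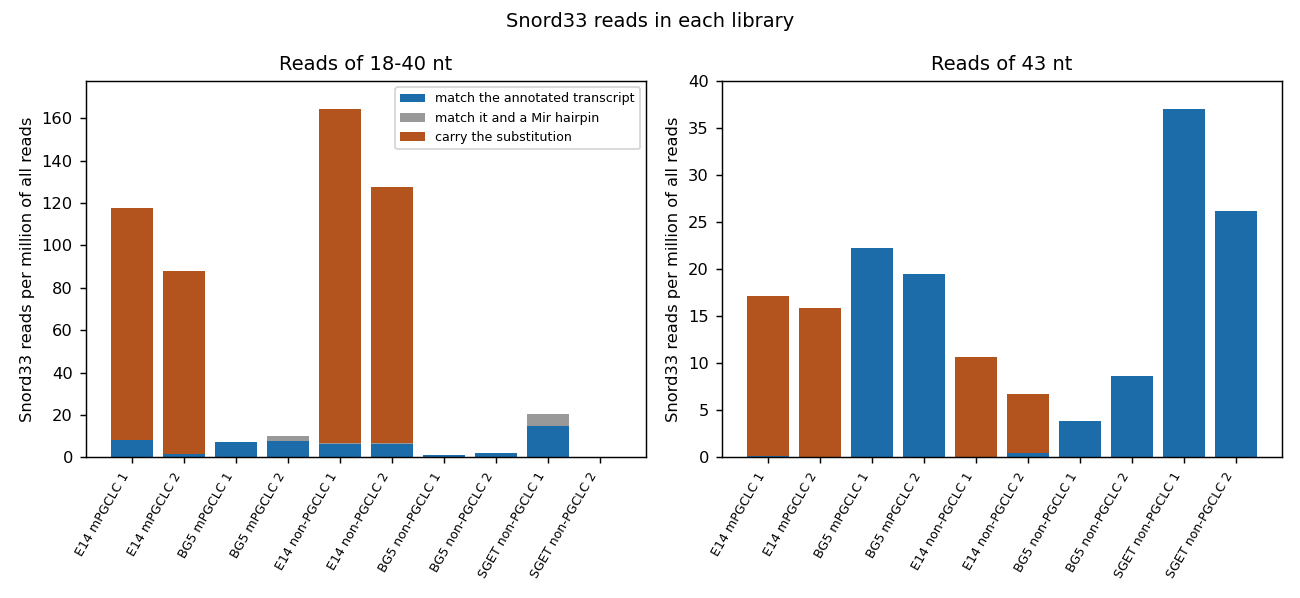
RPM of Snord33 reads in each library as stacked bars, split into exact reads, reads with A18C and reads shared with Mir5121, for 18 to 40-nt reads (left) and 43-nt reads (right). The substituted reads make up most of the bar in the 4 E14 libraries, up to 158 RPM in 18 to 40-nt reads, and are near 0 in BG5 and SGET.

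Snord93 shares its 5′ part with an annotated miRNA hairpin, and the reads that match both were left out of the counts above except where they are said to be added. There were 8358 of them, in 24 sequences, beside the 10960 reads of 18 to 40 nt counted for Snord93. The most frequent ran from nt 2 to nt 28 of the transcript and so lay within the Snord93 fragment shown in capitals above, nt 2 to nt 29, which is 1 base longer. They stood at 139 and 117 RPM in E14 mPGCLCs, 93.3 and 51.4 RPM in BG5 mPGCLCs, 115 and 141 RPM in E14 non-PGCLC cells, 15.7 and 33.7 RPM in BG5 non-PGCLC cells, and 81.2 and 49.6 RPM in SGET. BG5 non-PGCLC cells were the lowest in both the counted and the shared reads of Snord93. The hairpin is Mir3096, and whether a read came from the snoRNA or from the hairpin cannot be told apart by its sequence.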

How the data were processed

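Each deposited file lists the distinct sequences of 1 small RNA library with their read counts. The authors merged the sequencing runs of a library, trimmed adapters with cutadapt 3.2, removed the 4 random bases at each end, aligned with STAR 2.5.3a to GRCm38 and collapsed identical reads. PCR copies were not collapsed by these random bases and remain in the counts. The authors' counting of reads that map to several places could not be checked here.

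Reads were matched to GENCODE vM21 transcripts exactly and in sense, and genes sharing over 50% of their 18 to 40-nt reads were merged. Counts were fitted over all annotated small RNA genes in edgeR 4.0.16 (quasi-likelihood test, R 4.3.3) with filterByExpr, the total reads of a library as its size, 5 group means and Benjamini-Hochberg adjustment at 0.05. DESeq2 1.42.0, TMM and other settings were alternatives. The scripts were tested on simulated data. Named genes were the 12 with the most 18 to 40-nt reads, up to 6 called rises and 6 called falls without overlap between cell types in both lines, and up to 4 called genes each for the line difference and the non-PGCLC groups. Genes named from 43-nt reads, the within-line 43-nt contrasts and the Snord33 substitution were chosen after their values were seen. The members and lists were chosen with earlier results of these data known. The labels do not say whether replicates came from separate cultures, so p-values measure the spread between these samples, which may be technical. Some host genes are not reported here.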

Additional observations from a re-analysis of the deposited data

Results flagged for a closer look

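The effect of cell type on Snord42a in 18 to 40-nt reads differed between lines by a log2 value of 13.16 (BG5 minus E14, SE 3.46, edgeR adjusted p = 0.0315). The size of this value follows from the 2 BG5 non-PGCLC libraries, which held 0 reads, and is no bound. No member was called for this difference by edgeR with reads of 20 to 40 nt, with reads of 18 nt or longer, and in 3 of the 10 fits that each left out 1 library. In 43-nt reads the same difference was 0.70 (SE 0.94, edgeR adjusted p = 0.966).

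In E14 libraries 4759 reads of Snord33 carried A18C, counted from the 5′ end of the transcript, and so stood outside the exact match. The other 2 lines held 2 such reads in all.

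Reads that match both Snord93 and Mir3096 numbered 8358 and entered no count apart from the Snord93 values said to include them.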

How the results depend on the processing

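The 14 named genes had 308 alternative values for the mean cell-type difference in 18 to 40-nt reads, of which 273 kept direction and side of the threshold and 19 turned direction. Snord14c/Snord14d (-0.04) turned to 0.090 with TMM and 0.085 with the replicate block, and ran from -0.34 to 0.47 with 1 library left out. Snord82 (-0.01) turned to 0.062 with TMM, 0.062 with the block, 0.22 with reads of 18 nt or longer and 0.022 with up to 2 mismatches, and ran from -0.25 to 0.36. Snord100 (-0.26) turned to 0.052 with TMM, 0.098 with the block and 0.65 with 18 nt or longer, and ran from -0.69 to 0.98. Snord80 (-0.44) turned to 0.96 with 18 nt or longer.

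In 18 to 40-nt reads, the members called over both lines (1) were 3 with DESeq2, 2 with the compared samples alone, 0 with 20 to 40 nt and 0 to 3 with 1 library left out. Within BG5 (2) they were 6 with DESeq2, 1 with the compared samples alone, 1 with 20 to 40 nt, 1 with 18 nt or longer and 2 to 4 with 1 library left out. For the difference between lines (1) they were 3 with DESeq2, 2 with no low-count filter, 2 with the compared samples alone, 2 with annotated small RNA reads as library size, 0 with 20 to 40 nt, 0 with 18 nt or longer and 0 to 2 with 1 library left out. Between non-PGCLC groups (8) they were 4 with the compared samples alone, 13 with 18 nt or longer and 4 to 10 with 1 library left out, the 4 being without the second E14 non-PGCLC library. Over all 22 alternatives the share of all genes called was 6.37% to 18.4% over both lines, 6.95% to 19.9% within BG5, 2.25% to 10.8% for the difference between lines and 14.3% to 27.1% between non-PGCLC groups, where it was 17.1% with 18 nt or longer.

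In 43-nt reads, the members called over both lines (48) were 4 with TMM, 4 with DESeq2 and 17 with all 43-nt reads as library size. Within E14 (32) they were 1 with TMM, 0 with all 43-nt reads and 0 to 40 with 1 library left out. The lower counts were 20 and 14 without the first and second E14 mPGCLC library, and 15 and 0 without the first and second E14 non-PGCLC library. Within BG5 (43) they were 2 with TMM, 4 with all 43-nt reads and 26 to 49 with 1 library left out, 26 being without the first BG5 non-PGCLC library. For the difference between lines (0) they were 0 to 3, 3 being without the second BG5 non-PGCLC library. Between non-PGCLC groups (49) they were 15 with TMM and 13 with all 43-nt reads. The share of all genes called ran from 14.5% to 69.8% over both lines, 0% to 60.1% within E14, 8.7% to 68.5% within BG5, 0% to 3.36% for the difference between lines and 31.6% to 86.2% between non-PGCLC groups.

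The E14 log2 ratio of the 18 to 40-nt sum (-0.10) was -0.77 per annotated small RNA read and 0.97 in distinct sequences, and ran from -0.38 to 0.25 with 1 library left out; the BG5 ratio (0.50) was 0.99 per annotated small RNA read and 0.99 in distinct sequences. The 43-nt ratios (E14 1.33, BG5 1.52) were 0.51 and 0.52 per 43-nt read, and ran from 1.15 to 1.55 and from 1.24 to 1.87. The 5′ share of 18 to 40-nt reads was 44.7% within 2 nt of the end and 50.6% in distinct sequences, and that of 43-nt reads 71.1% and 66.8%. The 3′ share was 14.4% within 2 nt in 18 to 40-nt reads and 5.99% in distinct 43-nt sequences. The cause of these shifts was not tested.

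The replicate numbers did not pair the samples: same-numbered libraries deviated with correlations of -0.0619 (E14) and 0.133 (BG5) in 18 to 40-nt reads, and 0.0746 and 0.0954 in 43-nt reads. With the replicate block, 2 members were called for the difference between lines, 1 over both lines and 3 within BG5.

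The spread between replicates limits the 18 to 40-nt reads most, with a common dispersion of 1.76 against 0.0764 for 43-nt reads. The tests of single pairs of non-PGCLC groups, the alternatives that add Snord33 or Snord93 reads, all 43-nt reads as library size and the 43-nt contrasts within lines were chosen after seeing the data.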
